A study of Mus musculus with 6 samples.

Results

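The genes described here are those of milk protein synthesis and of the prolactin receptor-Stat5 pathway in HC11 cells, with and without BMP7. The rule for the 10 genes is a list of names with no measured value in it, although earlier results of these data were known when it was drawn up: *Csn1s1*, *Csn2*, *Csn3*, *Wap*, *Lalba*, *Prlr*, *Stat5a*, *Stat5b*, *Cish* and *Socs2*. All 10 are among the 55809 genes counted. HC11 is an established line of mouse mammary epithelial cells, used in the study as a luminal line. The samples are 3 poly(A) RNA libraries of HC11 cells in medium with BMP7 (BMP7) and 3 libraries in medium without it (Ctrl), with no genetic change in either group. By the methods, HC11 cells were starved for 16 h before BMP7 (50 ng per mL), which stayed on for 30 min or 6 h, and the duration behind the sequenced RNA is not given. The growth medium listed for HC11 holds serum, EGF and insulin, the medium listed for the starvation and BMP7 step holds none of these, and neither lists added prolactin or glucocorticoid. Nothing states that the libraries came from separate cultures, so p-values measure only the spread between these libraries, which may be technical.

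In the mammary epithelium, prolactin binds its receptor Prlr, the attached kinase Jak2 phosphorylates Stat5a and Stat5b, and the Stat5 dimers enter the nucleus and bind DNA at palindromic sites. With glucocorticoids and insulin, this switches on the casein genes and other milk protein genes, and HC11 cells are best known for making beta-casein once they are given these lactogenic hormones. Stat5 also induces Cish and Socs2, which damp signaling by the receptor.

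The Ctrl libraries held 19858701 to 20327200 counted fragments, and the BMP7 libraries held 14607938 to 23748970. The BMP7 libraries are numbered 1, 3 and 4 as in the deposited counts. Epithelial markers were abundant, with *Epcam* at 640 CPM and *Cdh1* at 983 CPM in Ctrl (CPM, counts scaled to library size with TMM factors), but the luminal keratin *Krt19* had at most 8 counts in any library. The basal keratins *Krt5* and *Krt14* were at 1203 and 1985 CPM per kilobase of exon in Ctrl, above *Krt8* and *Krt18* at 32.3 and 34.4. Of the other basal markers listed, *Trp63* was at 28.3 and *Oxtr* at 2.57, but *Acta2* and *Myh11* were only at 0.274 and 0.0365. The libraries are therefore called HC11 here and not luminal or basal cells. The 8 luminal and epithelial markers summed to between 1782 and 1806 CPM per Ctrl library and between 1435 and 1456 per BMP7 library, and the 6 basal markers to between 6333 and 6476 and between 7143 and 8482. The luminal and epithelial sum is mostly *Epcam* (640 CPM in Ctrl, 479 with BMP7) and *Cdh1* (983 and 818). These 2 genes, *Krt18* (49.5 and 31.3) and *Cldn3* were below Ctrl in every BMP7 library. *Krt8* (63.2 and 67.1), *Krt7*, *Krt19* and *Cldn4* overlapped. The basal sum is mostly *Krt5* (2643 CPM in Ctrl, 2582 with BMP7) and *Krt14* (3489 and 4696). *Krt14*, *Trp63*, *Oxtr* and *Myh11* were above Ctrl in every BMP7 library, *Acta2* was below, and *Krt5* overlapped. BMP7 replicates 3 and 4 stood apart from the other libraries in the sums of adipocyte, macrophage and lymphocyte markers. All 8 adipocyte markers had counts in every library, and their sums were 68.9 and 60.8 CPM in these replicates, against 11.3 to 18.9 in Ctrl libraries and 20.6 in the remaining BMP7 library. All 8 macrophage markers had counts in every library too, and their sums were 27.3 and 26.8 CPM there, against 47.4 to 51.7 in Ctrl libraries and 48.9 in the remaining BMP7 library. The lower macrophage sum rests mostly on *Lyz2*, at 25.5 to 26.6 CPM in Ctrl, 22.5 in BMP7 replicate 1 and 6.76 and 6.94 in replicates 3 and 4. *Cd14* (4.36 and 5.01 CPM), *Csf1r* (1.16 and 0.331) and *Adgre1* (0.400 and 0.386) were lower in replicates 3 and 4 too. Their Ctrl ranges were 6.65 to 7.22, 2.45 to 3.76 and 0.880 to 1.64 CPM. In BMP7 replicate 1 they were at 5.85, 2.65 and 1.25 CPM, so *Cd14* was below its Ctrl range in every BMP7 library. *Cd68* ranged between 12.4 and 15.6 CPM in BMP7 libraries against 10.9 to 11.6 in Ctrl. *C1qa*, *C1qb* and *Mrc1* lay within or above their Ctrl range in replicates 3 and 4. Lymphocyte sums were 1.556 and 1.267 CPM there, against 3.883 to 4.238 in Ctrl and 3.555 in BMP7 replicate 1. Fibroblast sums there, 116.4 and 115.1 CPM, lay within the Ctrl range of 113.3 to 124.4, though *Dcn* was at 4.44 and 4.90 against 0.737 to 1.73. Endothelial sums, mostly *Pecam1*, were higher in all BMP7 libraries, at 23.98 to 26.27 CPM against 13.22 to 15.89 in Ctrl. The part of these differences in the results below was not tested. Values without BMP7 replicates 3 and 4 are given where leaving them out loses a call or moves a member by over 1.5 times, in a fit that assumes that the lone BMP7 library varies like the Ctrl libraries.

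The milk protein genes had no expression that could be measured, with or without BMP7. *Csn1s1* (alpha-S1-casein), *Csn3* (kappa-casein, which stabilizes the casein micelle), *Wap* (whey acidic protein) and *Lalba* (alpha-lactalbumin, the cofactor of lactose synthesis) had 0 counts in each of the 6 libraries. *Csn2*, which encodes beta-casein, had 1 count in BMP7 replicate 3 and 0 in the other libraries. The 5 genes together therefore held 1 of 116751247 fragments. A count of 0 allows a level of up to 3 counts, which is 0.133 to 0.209 CPM in a single library. Over the 6 libraries it is 0.0257 CPM for a gene with 0 counts in all of them. For *Csn2* the limit is higher over the 6 libraries and in BMP7 replicate 3, and was not computed. These limits cover counting error only. All libraries of both groups lie under this floor, so no fold change can be given, and an effect of BMP7 on the milk protein genes was not detectable at this depth. In bulk RNA, fewer expressing cells and less RNA per cell cannot be told apart.

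By the deposited annotation, named mm39 in the header of the counts, the casein genes lie together on chromosome 5. *Csn1s1* runs from 87814067 to 87830437 on the plus strand, *Csn2* from 87840483 to 87847489 on the minus strand and *Csn3* from 88073438 to 88080524 on the plus strand. *Csn1s2a* and *Csn1s2b*, the other casein genes of this cluster, also had 0 counts in every library, so the 266.5 kb from *Csn1s1* to *Csn3* gave 1 casein fragment in all. *Wap* lies on chromosome 11 from 6585482 to 6588637 and *Lalba* on chromosome 15 from 98378281 to 98380602, both on the minus strand. None of the 5 genes shares an exon base with another gene. The longest coding transcript of each in GENCODE vM21 matched no other gene over at least 100 bases at 90% identity or more.

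Stat factors bind palindromes of the form TTCNNNGAA. RefSeq promoter windows on GRCm38.p6, each with 250 bases before and 50 after an annotated start, held 8 of the 10 genes in 12 windows (not *Csn3* or *Socs2*). The motif, which reads the same on both strands, was in 4 of these windows, those of *Csn1s1*, *Csn2*, *Cish* and 1 of the 3 windows of *Prlr*, and in 8.30% of all 32851 windows. The windows of *Csn2* and *Cish* are shown because both hold the same 9 letters, TTCTTGGAA, which 0.417% of all windows hold on either strand, while *Csn2* had 1 count in all and *Cish* had counts in every library. The motif is in capitals, the *Csn2* stretch ends at the base before its start site (chr5:87699426-87699675, minus strand), and the *Cish* stretch runs to base 30 after its start site (chr9:107296539-107296688, plus strand).
Csn2: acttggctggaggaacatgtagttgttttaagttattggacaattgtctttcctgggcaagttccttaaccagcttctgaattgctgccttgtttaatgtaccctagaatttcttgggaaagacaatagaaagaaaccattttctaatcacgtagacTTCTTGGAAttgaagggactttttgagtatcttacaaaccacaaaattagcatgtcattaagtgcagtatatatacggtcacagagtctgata
Cish: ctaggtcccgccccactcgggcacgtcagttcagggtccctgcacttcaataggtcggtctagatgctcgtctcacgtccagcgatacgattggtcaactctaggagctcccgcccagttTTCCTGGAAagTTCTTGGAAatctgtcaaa
In *Csn2* the motif lies from -93 to -85 relative to the start site. In *Cish* 1 copy, TTCCTGGAA, lies from 1 to 9 and the other from 12 to 20. *Csn1s1* holds TTCTTAGAA from -100 to -92. A match of letters is a description of these windows and not a measured site, and none of the assays here measured Stat5 binding.

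**Figure D1:**
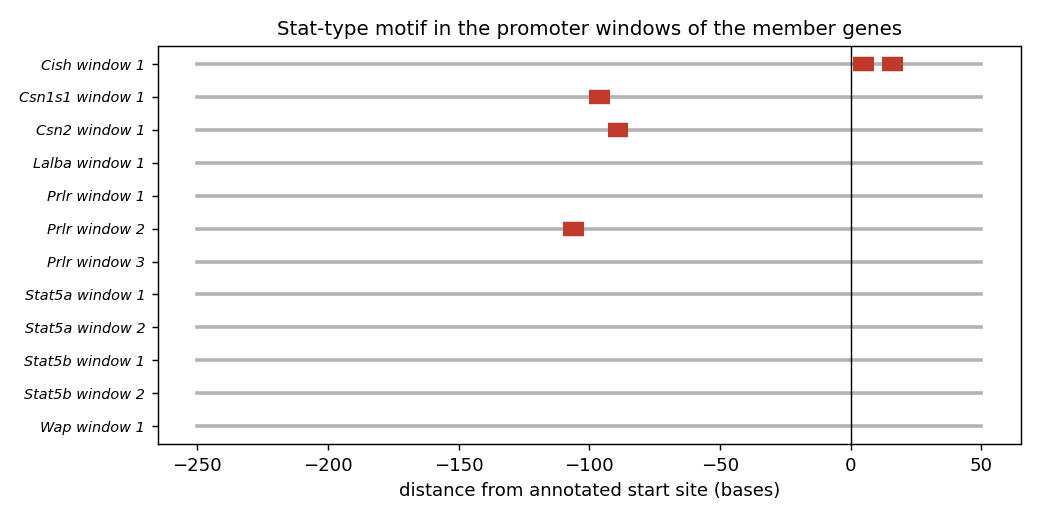
Positions of TTCNNNGAA in the 12 RefSeq promoter windows of the member genes (grey lines, from 250 bases before to 50 after the annotated start, x axis in bases). Red blocks mark the 9-base motif, upstream of the start in *Csn1s1*, *Csn2* and *Prlr* window 2 and just after it in *Cish*, and the other 8 windows hold none.

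Of 21 other milk and secretory genes, 11 were expressed highly enough to be tested, and 9 had at most 3 counts in every library. *Glycam1*, *Lpo*, *Lao1*, *Olah*, *Fabp3*, *Cel* and *Pigr* were among the latter, together with the caseins *Csn1s2a* and *Csn1s2b*. *Spp1* (osteopontin, a secreted phosphoprotein of milk that many cells make) was the highest per length, at 1362 CPM per kilobase in Ctrl, and was measured at 2245 CPM in Ctrl and 1879 with BMP7. Its log2 fold change of -0.26 (adjusted p = 0.0206, edgeR quasi-likelihood test, Benjamini-Hochberg over all genes) was smaller than the fold change of 1.2 that a call required. *Spp1* shares 18.8% of its exon length with Gm42793. *Plin2*, which coats lipid droplets, came next, at 42.7 CPM per kilobase in Ctrl and with 150 CPM in Ctrl against 163 with BMP7 (log2 fold change 0.12, adjusted p = 0.255, edgeR).

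With calls made at adjusted p below 0.05 and more than 1.2-fold change, 2 of these 11 genes were higher and 2 lower with BMP7, where 5.99% of all genes tested were higher and 5.38% lower. The median log2 fold change of the 11 genes was 0.075, beside -0.00621 over all genes tested. *Btn1a1* encodes butyrophilin, a protein of the milk fat globule membrane. It was at 21.0, 18.8 and 18.1 CPM in Ctrl and at 24.7, 28.4 and 27.2 in BMP7 replicates 1, 3 and 4, with every BMP7 library above every Ctrl library. Its log2 fold change was 0.47 (standard error 0.09, adjusted p = 0.00213, edgeR), and 0.35 (adjusted p = 0.115) without BMP7 replicates 3 and 4. *Muc15*, a membrane mucin also found on milk fat globules, rose from 139 to 228 CPM (log2 fold change 0.72, standard error 0.10, adjusted p = 8.98e-05, edgeR). *Aqp5*, a water channel, fell from 41.5 to 32.7 CPM (log2 fold change -0.35, adjusted p = 0.00443), and was at -0.28 (adjusted p = 0.132, edgeR) without BMP7 replicates 3 and 4. *Fcgrt*, the neonatal Fc receptor that carries IgG, was called lower (log2 fold change -0.51, adjusted p = 0.0424, edgeR), but its groups overlapped. That call was lost without Ctrl replicate 1, BMP7 replicate 1 or BMP7 replicate 3, with a log2 fold change of -0.32 without Ctrl replicate 1, and also without BMP7 replicates 3 and 4 (-0.58, adjusted p = 0.127, edgeR).

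**Figure D2:**
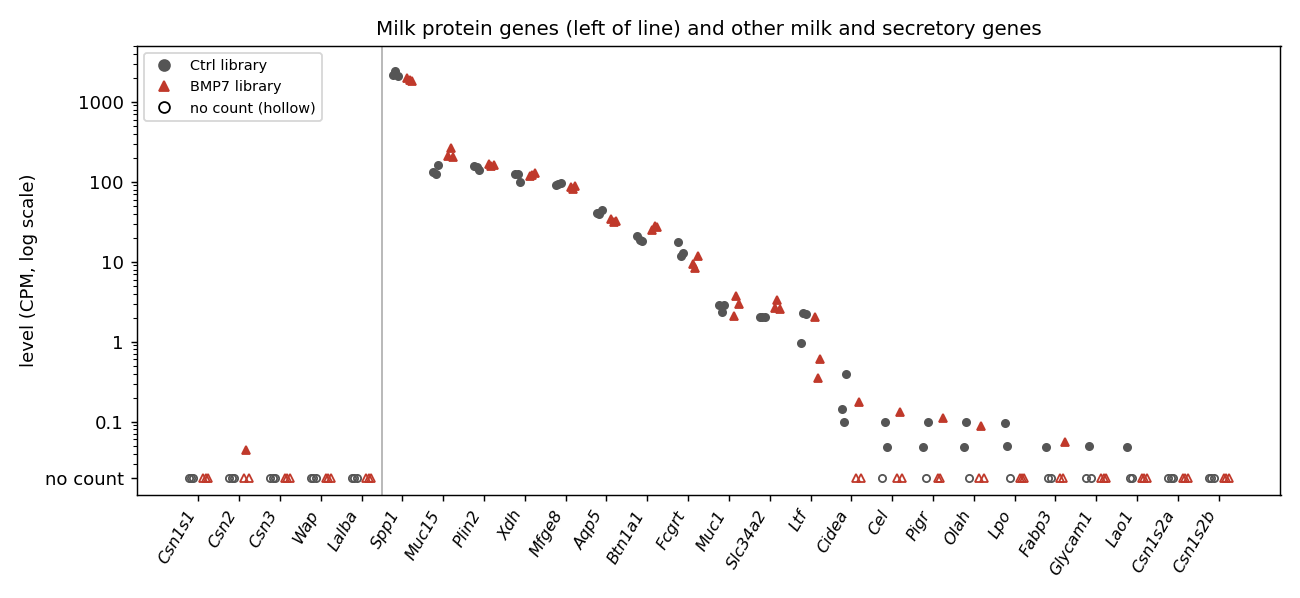
Level of the 5 milk protein genes (left of the line) and of 21 other milk and secretory genes in each library, as CPM on a log scale (grey circles Ctrl, red triangles BMP7, hollow symbols no count). The caseins, *Wap* and *Lalba* lie at no count except for the single *Csn2* fragment in BMP7 replicate 3, and *Spp1* averages 2245 CPM in Ctrl and 1879 with BMP7.

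The receptor, both Stat5 genes and both feedback genes were expressed in every library, unlike the milk protein genes. Per kilobase of the deposited exon length, their Ctrl levels ran in the order *Stat5b*, *Stat5a*, *Socs2*, *Cish* and *Prlr*, at 9.96 ± 0.580, 8.12 ± 0.795, 3.17 ± 0.137, 2.73 ± 0.0697 and 0.910 ± 0.122 CPM per kilobase (mean ± SD, n = 3). Neighbours in this order did not overlap in Ctrl, and neighbours in the same order did not overlap with BMP7 either. Among all genes tested, *Stat5b* stood at percentile 64.5 of this level, *Stat5a* at 58.9, *Socs2* at 36.2, *Cish* at 33.7 and *Prlr* at 18. The deposited length sums every annotated exon of a gene, and the percentiles and the order at the top depend on it. Percentiles were not computed with another length. Per kilobase of the longest coding transcript in GENCODE vM21, a length chosen after seeing the data, *Stat5a* and *Socs2* overlapped in Ctrl (13.4 to 16.3 and 13.2 to 14.3), *Stat5b* came below them (9.88 to 11), and *Cish* (6.15) and *Prlr* (1.41) stayed last.

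None of the 5 genes was called higher or lower with BMP7 by edgeR's quasi-likelihood test, which called 11.4% of all genes tested in either direction, nor by DESeq2, which called 10.6%. At an unadjusted p under 0.05, 4 of the 5 passed, where 26.2% of all genes tested did, and by adjusted p alone 1 did (*Socs2*), where 13.7% of all genes tested did. Their median log2 fold change was -0.19, beside -0.00621 over all genes tested. The other 5 genes did not reach the expression filter.

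*Prlr* encodes the prolactin receptor, and lies on chromosome 15 from 10177324 to 10349266 on the plus strand. It was at 15.9, 12.2 and 13.7 CPM in Ctrl replicates 1, 2 and 3 and at 11.3, 10.2 and 12.2 in BMP7 replicates 1, 3 and 4. Every BMP7 library lay below every Ctrl library, as in 15.1% of all genes tested, but the lowest Ctrl and the highest BMP7 library both round to the same level. The log2 fold change was -0.32 (95% interval -0.58 to -0.06, adjusted p = 0.105, edgeR), and it ranged from -0.41 to -0.21 over the fits without 1 library, the smallest being without Ctrl replicate 1. The mean BMP7 level was 0.803 times the Ctrl level, and *Prlr* was not called.

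*Stat5b* and *Stat5a* lie 8.63 kb apart on chromosome 11, from 100671557 to 100741550 on the minus strand and from 100750177 to 100775995 on the plus strand. *Stat3* follows, with its end overlapping that of *Stat5a* by 72 exon bases. *Stat5a*, the main Stat5 of the lactating gland, was at 58.7, 52.0 and 63.2 CPM in Ctrl and at 53.1, 48.6 and 49.3 with BMP7, and the groups overlapped. Its log2 fold change was -0.21 (95% interval -0.37 to -0.04, adjusted p = 0.0967, edgeR). Without Ctrl replicate 2 it was called lower, with a log2 fold change of -0.28 (adjusted p = 0.0457, edgeR). The value was smaller without Ctrl replicate 3, at -0.14 (adjusted p = 0.366, edgeR), and without BMP7 replicates 3 and 4, at -0.12 (adjusted p = 0.561). *Stat5b*, which also carries growth hormone signals, was at 56.6, 51.5 and 57.5 CPM in Ctrl and at 49.0, 42.5 and 54.1 with BMP7, with overlap between the groups. The log2 fold change of *Stat5b* was -0.19 (95% interval -0.37 to -0.0093, adjusted p = 0.166, edgeR). It was called lower only without BMP7 replicate 4, its highest BMP7 library, with a log2 fold change of -0.28 (adjusted p = 0.0416, edgeR), and was at -0.0941 (adjusted p = 0.573) without BMP7 replicate 3, its lowest.

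The log2 ratio of *Stat5a* to *Stat5b*, per kilobase of exon, was -0.31, -0.35 and -0.23 in Ctrl and -0.25, -0.17 and -0.50 with BMP7. The means of -0.30 ± 0.06 and -0.31 ± 0.17 (SD, n = 3 each) differed by -0.0089, less than the spread between libraries (exact permutation test, two-sided p = 0.9, where 3 libraries against 3 cannot go below 0.1). The transcripts of these 2 genes match each other over 2332 bases at 90% identity or more, with stretches above 95%. Fragments that map to both were not counted, so both levels are uncertain and may be understated.

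*Cish*, an SH2 protein that Stat5 induces and that binds the activated receptor, lies on chromosome 9 from 107173225 to 107179983 on the plus strand. *Cish* was at 17.0, 17.7 and 17.8 CPM in Ctrl and at 17.3, 15.5 and 15.2 with BMP7, so that BMP7 replicate 1 lay within the Ctrl range. The log2 fold change of -0.14 (95% interval -0.34 to 0.07, adjusted p = 0.409, edgeR) was -0.0173 (adjusted p = 0.958) without BMP7 replicates 3 and 4. *Cish* shares 11.5% of its exon length with Gm17040 and Gm17041, and fragments there were not counted for either.

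*Socs2*, the suppressor of cytokine signaling best known for restraining growth hormone signals, lies on chromosome 10 from 95221224 to 95253042 on the minus strand. It was the 1 member with a higher level in the BMP7 libraries, at 31.7, 29.2 and 29.8 CPM in Ctrl and at 35.1, 37.6 and 34.9 with BMP7. Its BMP7 libraries all exceeded its Ctrl libraries, as in 14.8% of all genes tested. Its log2 fold change was 0.25 (95% interval 0.09 to 0.41, adjusted p = 0.0390, edgeR), which passed by adjusted p but not the fold change of 1.2 (0.26 on the log2 scale). Without BMP7 replicate 4 it passed both, at 0.265 (adjusted p = 0.0476, edgeR), and without BMP7 replicates 3 and 4 it was at 0.21 (adjusted p = 0.25). The adjusted p of *Socs2* was above 0.05 with DESeq2 (0.0534), with upper-quartile scaling (0.0551), without a filter on low counts (0.0659) and in 4 of the 6 edgeR fits without 1 library (0.0535 without Ctrl replicate 1, 0.147 without Ctrl replicate 2, 0.121 without Ctrl replicate 3 and 0.145 without BMP7 replicate 3). Gm9847 transcripts matched *Socs2* over at most 599 bases and at an identity of up to 99.5%, and fragments that map to both were not counted for *Socs2*.

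**Figure D3:**
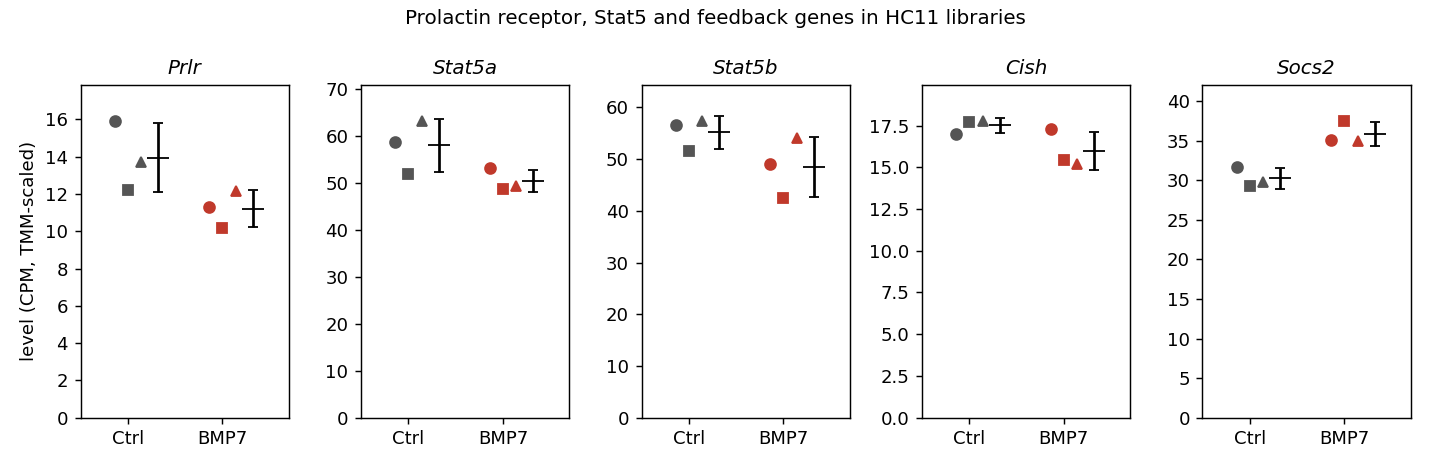
Level of *Prlr*, *Stat5a*, *Stat5b*, *Cish* and *Socs2* in each library as CPM after TMM scaling, with 3 Ctrl (grey) and 3 BMP7 (red) libraries and their mean ± SD (black bars). Circles, squares and triangles are Ctrl replicates 1, 2 and 3 and BMP7 replicates 1, 3 and 4, and only *Socs2* has its BMP7 libraries above all Ctrl libraries.

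Of 15 listed receptors, kinases, phosphatases and partners of the pathway, 14 were tested. None was called higher and 2 were lower with BMP7 by edgeR and by DESeq2. Of all genes tested, edgeR called 5.99% higher and 5.38% lower. *Vav2*, a guanine nucleotide exchange factor bound to the prolactin receptor, fell from 16.4 to 11.9 CPM (log2 fold change -0.47, standard error 0.11, adjusted p = 0.00943, edgeR). *Tyk2*, a Jak kinase of interferon receptors, fell from 71.4 to 58.1 CPM (log2 fold change -0.30, standard error 0.07, adjusted p = 0.0122, edgeR). Neither call held without BMP7 replicate 3 (adjusted p = 0.061 for *Vav2* and 0.055 for *Tyk2*, edgeR), *Vav2* was at -0.35 (adjusted p = 0.165) without BMP7 replicates 3 and 4, and *Tyk2* also lost its call without Ctrl replicate 1 (0.0775). *Tyk2* shares 8.07% of its exon length with 1700084C06Rik, so fragments may be missing from it. *Cav1*, a caveolin that binds Jak2, was the highest of the list at 96.9 CPM per kilobase in Ctrl. Its log2 fold change of -0.18 (adjusted p = 0.0463, edgeR) did not reach the fold change required. *Ptpn11*, the phosphatase Shp2, followed at 21.5 CPM per kilobase and was at a log2 fold change of -0.0271 (adjusted p = 0.829, edgeR).

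*Jak2*, the kinase of the prolactin receptor, and *Erbb4*, a receptor that can also activate Stat5, are named here after their values were seen. *Jak2* was at 42.5 CPM in Ctrl and 44.8 with BMP7 (log2 fold change 0.08, 95% interval -0.07 to 0.23, adjusted p = 0.541, edgeR). *Erbb4* had 0 counts in every library.

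No gene was called among the 4 tested of 5 other STAT genes or the 6 other SOCS genes, by edgeR or by DESeq2. These called 11.4% and 10.6% of all genes tested. At an unadjusted p under 0.05 (edgeR) none of these STAT and SOCS genes passed, where 26.2% of all genes tested did. The median log2 fold changes of these lists were -0.0504 and -0.0434. *Stat6* and *Stat3*, the STATs of interleukin-4 and of interleukin-6 type cytokines, were the highest per length in Ctrl, at 38.8 and 24.7 CPM per kilobase. *Socs3* and *Socs5* led the SOCS genes, at 19.9 and 15.4 CPM per kilobase, above *Socs2* on the same scale.

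**Figure D4:**
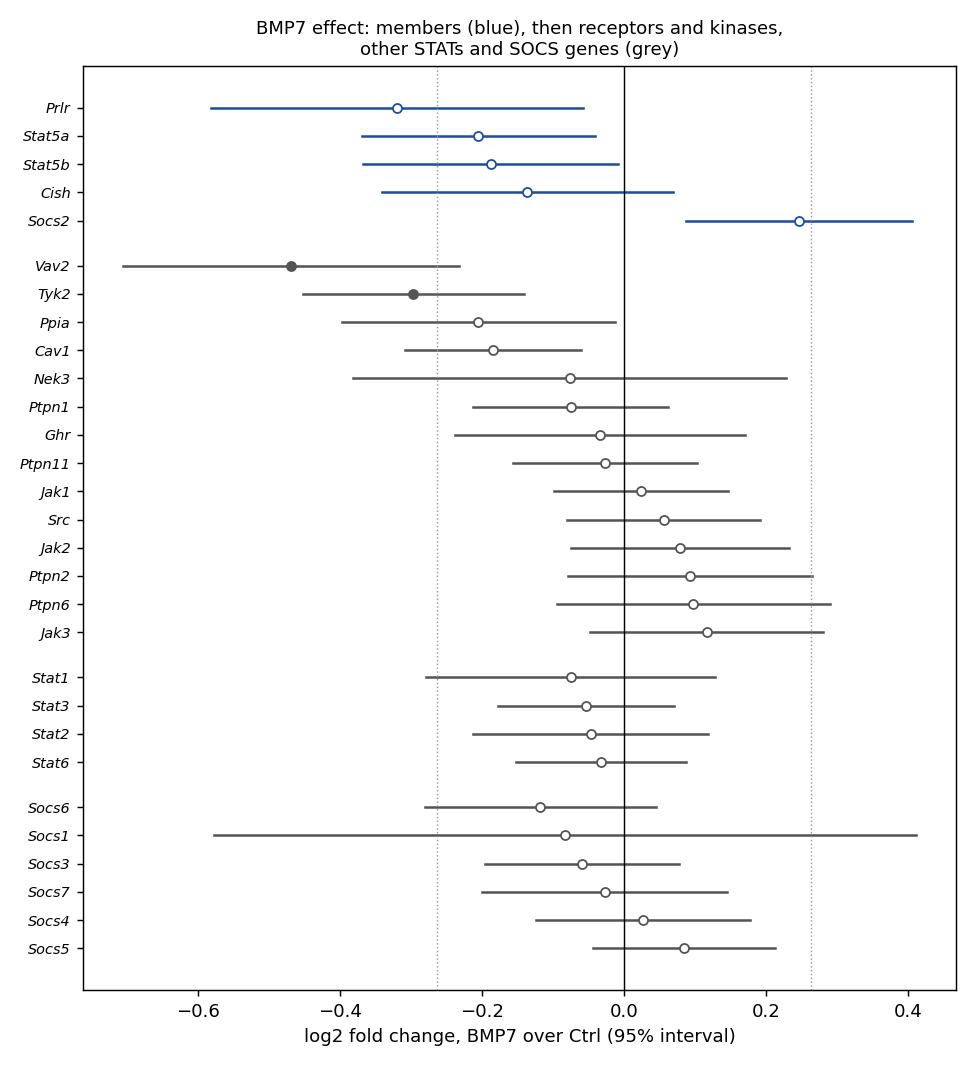
BMP7 effect as log2 fold change (BMP7 over Ctrl, x axis) with its 95% interval from edgeR's quasi-likelihood fit, for the 5 measured members (blue) and for receptors, kinases, other STATs and SOCS genes (grey). Filled symbols mark called genes (*Vav2* and *Tyk2* only), dotted lines mark a fold change of 1.2 in each direction, and the members run from -0.32 for *Prlr* to 0.25 for *Socs2*.

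Among 18 genes for transcription factors and hormone-converting enzymes that act on milk genes, 16 were tested. With BMP7, 2 were higher and 1 lower, where 5.99% of all genes tested were higher and 5.38% lower. The median log2 fold change of the 16 was -0.0379. *Gata3*, a factor of luminal identity and alveolar development, was at 58.8, 61.1 and 69.9 CPM in Ctrl and at 135, 148 and 112 in BMP7 replicates 1, 3 and 4. The BMP7 libraries all exceeded the Ctrl libraries (log2 fold change 1.06, standard error 0.09, adjusted p = 4.88e-07, edgeR), and the call held under each of the 14 alternatives. *Nfib*, a nuclear factor I protein that acts with Stat5 at milk genes, fell from 306, 359 and 357 CPM to 239, 276 and 259 (log2 fold change -0.40, standard error 0.07, adjusted p = 0.0013, edgeR). *Runx2*, a runt factor that can act on the beta-casein promoter, rose from 125 to 158 CPM (log2 fold change 0.34, adjusted p = 0.00377, edgeR), and was under the fold threshold without BMP7 replicate 3 at 0.26. Without BMP7 replicates 3 and 4 *Runx2* was also at 0.26, with an adjusted p of 0.0584 (edgeR). *Ybx1* and *Nfix*, a repressor of casein transcription and another nuclear factor I protein, were the highest per length, at 190 and 188 CPM per kilobase in Ctrl. *Ybx1* transcripts match Gm11560 at 96.1% identity. *Gata3*, *Runx2* and *Nfix* share 5.83%, 5.87% and 4.98% of their exon length with other genes. Fragments may be missing from all of these.

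*Elf5*, *Nr3c1* and *Pgr* are named after their values were seen, for their roles in milk gene control. *Elf5*, the alveolar factor that acts with Stat5, was at 24.6 CPM in Ctrl and 20.5 with BMP7 (log2 fold change -0.26, 95% interval -0.48 to -0.04, adjusted p = 0.12, edgeR). *Nr3c1*, the glucocorticoid receptor, was at 84.0 and 85.6 CPM (log2 fold change 0.028, adjusted p = 0.838, edgeR). *Pgr*, the progesterone receptor, had 0 counts in every library.

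Of 16 genes known as targets of Stat5 in some tissue, 10 were tested, with a median log2 fold change of 0.108. Among these, 2 were higher and 1 lower with BMP7, where 5.99% of all genes tested were higher and 5.38% lower. *Cdkn1a*, the cell cycle inhibitor p21, was at 70.9, 73.4 and 77.6 CPM in Ctrl and at 121, 144 and 116 with BMP7. *Bcl2l1*, which encodes the survival protein Bcl-xL, was at 60.8, 68.3 and 71.1 CPM in Ctrl and at 107, 114 and 90.3 with BMP7. Both had every BMP7 library above every Ctrl library, with log2 fold changes of 0.78 (standard error 0.08, adjusted p = 2.2e-06, edgeR) and 0.64 (standard error 0.08, adjusted p = 5.41e-05). *Ccnd1*, encoding cyclin D1, was called lower, with a log2 fold change of -0.39 (adjusted p = 0.0347, edgeR), but Ctrl replicate 1 at 81.1 CPM lay within its BMP7 range of 76.1 to 81.6. The *Ccnd1* call was lost with DESeq2 (adjusted p = 0.223) and in 5 of the 6 fits without 1 library, and its log2 fold change was -0.20 without Ctrl replicate 2 and -0.34 (adjusted p = 0.267, edgeR) without BMP7 replicates 3 and 4. *Ccnd1* shares 23.4% of its exon length with LTO1, and *Cdkn1a* shares 7.68% with 1700023B13Rik. *Akt1*, a kinase gene, was the highest per length, at 45.6 CPM per kilobase in Ctrl. *Tnfsf11*, the paracrine signal RANKL of the hormone-treated gland, and *Igf2* had 0 counts in every library.

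Over the 6 lists together, 61 of 81 genes were tested. With BMP7, 6 were higher and 6 lower, where 5.99% of all genes tested were higher and 5.38% lower. Without BMP7 replicate 3, 2 were lower (*Aqp5* and *Nfib*), and without BMP7 replicates 3 and 4, 3 were.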

How the data were processed

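The authors aligned read pairs with subjunc (Subread 2.0.3) and deposited raw counts of fragments per gene name from featureCounts 2.0.1, with summed exon lengths. By the header, the annotation was named mm39 (the methods name mm10 and GENCODE vM30), strand was not used, and fragments at several places or genes were left out. Libraries were grouped by their labels. The BMP7 columns are numbered 1, 3 and 4 and the labels 1, 2 and 3.

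Counts were analysed in R 4.3.3 with edgeR 4.0.16. Of 55809 genes, 15733 passed its expression filter and were tested with TMM scaling and the quasi-likelihood test, p-values being adjusted by Benjamini-Hochberg across these genes. A call required adjusted p below 0.05 and more than 1.2-fold change. Standard errors are the log2 fold change over the square root of F. Replicates differed by more than counting noise (chi-square per degree of freedom 3.86 to 8.49). The tests were first tried on simulated counts. Named genes are the members and, per list, the called genes, the 2 highest per length and, for milk genes and Stat5 targets, those without counts. No member was called, so no most similar gene was named. The members and lists were chosen with earlier results of these data known. Alternatives were DESeq2 1.42.0, other scalings, filters and fold thresholds, and leaving out libraries. Transcript matches used BLAST 2.17.0 with the longest coding transcript of each gene against GENCODE vM21, and promoters are from RefSeq (GRCm38.p6).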

Additional observations from a re-analysis of the deposited data

How the results depend on the processing

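Of the 14 alternatives, adjusted p alone and a fold change of 2 changed only the threshold and kept the fold changes of the main fit. None of the 70 log2 fold changes of *Prlr*, *Stat5a*, *Stat5b*, *Cish* and *Socs2* under the 14 alternatives changed sign, and 66 stayed on the same side of the threshold. The other 4 passed it, namely *Socs2* by adjusted p alone and without BMP7 replicate 4, *Stat5a* without Ctrl replicate 2 and *Stat5b* without BMP7 replicate 4. By adjusted p alone, 1 member was therefore higher. With 1 library left out, between 0 and 1 members were higher and between 0 and 1 lower, and among the listed pathway and milk genes between 5 and 7 were higher and between 2 and 7 lower. At a fold change of 2, 1 list gene was higher (*Gata3*) and 0 were lower, and over all genes 252 were higher and 112 lower against 942 and 846 at 1.2. Without Ctrl replicate 2, 563 of all genes were lower. With BMP7 libraries 3 and 4 left out, 3 list genes were lower. The log2 ratio of *Stat5a* to *Stat5b* (BMP7 minus Ctrl) ranged from -0.0762 to 0.0872 with 1 library left out, and reversed to 0.0264 without Ctrl replicate 3 and 0.0872 without BMP7 replicate 4. The cause was not tested. No paired analysis was possible because the BMP7 columns are numbered 1, 3 and 4 and the labels 1, 2 and 3, so no number ties a BMP7 library to a Ctrl library, and the planned fit with a replicate block was not run. Depth limits the milk protein genes to an upper bound.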
